A study of Mus musculus with 9 samples.

Results

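Trailers are the stretches that follow the mature part in the precursors of transfer RNAs (tRNAs), and their fragments were counted here in mouse blood serum. A read was taken as a trailer read where every one of its alignments lay on nuclear tRNA precursor references, with 108 or more bases before its first base. Precursors of Arg-ACG, Tyr-GTA, Ile-TAT and Leu-CAG-3-1 were left out. The rule found 1342 of 41240 distinct reads, and 7056 of 555585 tRNA reads (1.27%). They fell into 169 sums, 154 of them of 1 tRNA gene and 15 shared by several genes with the same letters. A sum is named by amino acid, anticodon, mature sequence number and gene copy, so that His-GTG-2-7 is copy 7 of the gene for 1 histidine tRNA. Only 40 sums held 10 or more reads and 56 held a single read.

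The serum was labelled week 20 and belongs to work on atherosclerosis and on SalB, salvianolic acid B, a plant phenolic found in Salvia miltiorrhiza root. There were 3 groups of 3 libraries: normal diet, high fat diet, and high fat diet with SalB. The libraries of the 3 groups, normal diet included, share the label atherosclerosis. The titles of the normal diet libraries alone carry C57. No source used here gives the strain of the other groups, the SalB dose or the age of the mice, so diet and strain cannot be told apart in comparisons with normal diet. The labels do not say that the 3 libraries of a group are separate animals, so p-values measure only how far these samples spread, which may be technical. The references hold tRNAs only, so the label of serum could not be checked against marker genes.

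A nuclear tRNA gene is transcribed by RNA polymerase III, which stops in a run of T on the coding strand. The endonuclease RNase Z cuts the precursor just after the mature part and so frees the trailer, and CCA is then added to the mature tRNA. Trailer fragments, also called tRF-1, therefore begin where the mature tRNA ends, hold no CCA and end in the U tail left by termination. Their letters differ between gene copies that give the same mature tRNA, so a trailer read shows which copy was transcribed.

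The letters of the 10 most abundant trailers are shown because the results below turn on where reads start, on where they end relative to runs of T and on which gene copy they name. They run 5′ to 3′ on the precursor from the first base after the mature part, as far as the reads cover it, and capitals mark runs of 4 or more T.
His-GTG-2-7: tttagtagtaccgtccctttgcagcTTTT
Ser-GCT-4-1: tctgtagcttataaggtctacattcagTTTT
Ala-TGC-3-1: aacggctaccgcctaccTTTTagca
Ala-AGC-2-1: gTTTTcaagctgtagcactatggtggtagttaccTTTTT
Cys-GCA-3-4: cacggctacttaccgtgtgtcccTTTTg
Ala-CGC-2-1: agcagccggaattctgTTTTTc
Thr-AGT-1-2: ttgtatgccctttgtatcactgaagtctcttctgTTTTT
Thr-CGT-1-1: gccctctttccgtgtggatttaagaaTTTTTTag
His-GTG-1-1: ctatcgtccttctgcccagcgatct
Ser-AGA-2-6: attgtgggTTTTTgt
In 9 of these 10 the reads covered a run of 4 or more T, and in His-GTG-1-1 they did not reach one. No genome was used, so a place was looked for only in the promoter windows of RefSeq, where 1 of the 10 was found. The most abundant Ala-AGC-2-1 read matched GRCm38.p6 chr13:21222658-21222679 on the plus strand, directly after the RefSeq tRNA gene n-TAagc16 (21222586 to 21222657).

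These 10 sums held 84.1% of the trailer reads and were the only trailers that passed the filter on low counts, which asked for 10 reads, rescaled to the median depth, in at least 3 libraries. The other 159 sums held too few reads for a test. His-GTG-2-7 alone gave 2705 reads, 38.3% of trailer reads, and Ser-GCT-4-1 gave 1368, or 19.4%. Ala-TGC-3-1 followed with 405, Ala-AGC-2-1 with 330 and Cys-GCA-3-4 with 283. By amino acid, histidine trailers made up 41.4% of trailer reads, serine 22.5%, alanine 14.2%, threonine 6.04%, cysteine 4.97% and leucine 2.91%. Reads were 14 to 39 bases long, with a median of 20 bases in each of the 9 libraries.

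Among copies of 1 tRNA, a single copy gave nearly all trailer reads in several cases. His-GTG-2 was met as 7 gene copies, and His-GTG-2-7 held 98.0% of their reads, against 25 reads of His-GTG-2-1, the next copy. Ser-GCT-4-1 held 98.7% of the reads of 3 copies, Thr-AGT-1-2 99.5% of 3 and Ala-AGC-2-1 96.5% of 2. Cys-GCA-3-4 held 84.0% of the reads of 4 copies, with 49 reads from Cys-GCA-3-3, and Ser-AGA-2-6 80.5% of 6. Ala-TGC-3-1, Ala-CGC-2-1, Thr-CGT-1-1 and His-GTG-1-1 were the only copies met. The most abundant reads of 3 copies of the same histidine tRNA are shown to let their letters be compared, with capitals for the T at the 3′ end.
His-GTG-2-7: tttagtagtaccgtcccTTT
His-GTG-2-1: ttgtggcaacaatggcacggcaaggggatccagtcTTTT
His-GTG-2-2: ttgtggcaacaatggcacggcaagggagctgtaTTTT
The His-GTG-2-7 read has 20 bases and the reads of the other copies have 39 and 37, close to or at the longest length seen. Trailers longer than the sequenced fragments can be under-counted, so these shares compare reads and not transcription. Only 106 trailer reads (1.5%) aligned to several genes. Another 33 distinct reads aligned both to these trailers and to left-out precursors, and the rule did not count them. They held 561 reads, 540 of them in SalB replicate 2.

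tRNA reads per library ran from 28191 to 156333. SalB replicate 2 stood apart, with 42% of its tRNA reads on the left-out Leu-CAG-3-1 precursor, against 2.55% in SalB replicate 1 and at most 0.107% in the other 7. Trailer reads made up 1.23%, 1.38% and 1.26% of tRNA reads in the normal diet libraries and 1.26%, 1.43% and 1.21% on the high fat diet. The SalB libraries gave 2.44% (95% Wilson interval 2.32 to 2.56), 0.724% (0.683 to 0.767) and 1.53% (1.41 to 1.65), intervals that cover counting error only. The SalB libraries thus lay on both sides of the other groups, and with Leu-CAG-3-1 left out of the totals they were at 2.5%, 1.25% and 1.53%. Levels below are normalised CPM, reads per 1000000 tRNA reads scaled by trimmed means of M values, with scaling factors from 0.566 in SalB replicate 2 to 1.17. Scaling by total tRNA reads moved the median log2 fold change of all sums from 0.08 to -0.46 for SalB against high fat diet and from 0.04 to -0.45 for SalB against normal diet.

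Most trailer reads began exactly where the mature tRNA ends. Of 7056 reads, 5535 (78.4%) started at the first base after the mature part and 869 (12.3%) at the second. His-GTG-2-7 started at the first base in 99.4% of its reads, Ser-GCT-4-1 in 98.2% and Ala-TGC-3-1 in 93.6%. Ala-AGC-2-1 was divided, with 54.8% at the first and 43.0% at the second base. Cys-GCA-3-4 and His-GTG-1-1 gave no read from the first base, and 98.9% and 99.3% of their reads started at the second. The letters of both trailers begin with c, which those reads lack.

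Start and first letter were then set side by side in the 29 trailers of 1 gene with 10 or more reads from the first or second base, a description made after the data were seen. Reads from the second base outnumbered those from the first in 5 of 5 trailers that begin with C: Cys-GCA-3-4, His-GTG-1-1, Ala-AGC-5-3, Leu-TAG-3-1 and Val-TAC-1-1. None of their 481 reads started at the C. Among 10 trailers that begin with T, 0 were of that kind, and 24 reads of 4414 started at the second base. Among 7 that begin with A it was 1, Arg-CCT-1-1, and among 7 that begin with G it was 1, Ser-TGA-1-1. In both of these the end of the mature part was placed by the length of the mature tRNA and not by its letters.

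Ser-AGA-2-6 differed from the other 9, since 93.3% of its reads started before the mature end and so held both mature and trailer letters. Serine and leucine tRNAs have a long variable arm, and their mature part extends past the 108 bases of the rule. The most abundant Ser-AGA-2-6 read is shown because it crosses that end, 11 bases into the mature part, and its capitals mark the T at the 3′ end.
Ser-AGA-2-6, most abundant read: tgccgactacgattgtgggTTT
It gave 27 of 120 reads. Thr-CGT-1-1 held 30.7% of reads that started more than 2 bases past the mature end, and Thr-AGT-1-2 held 8.02%.

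**Figure D1:**
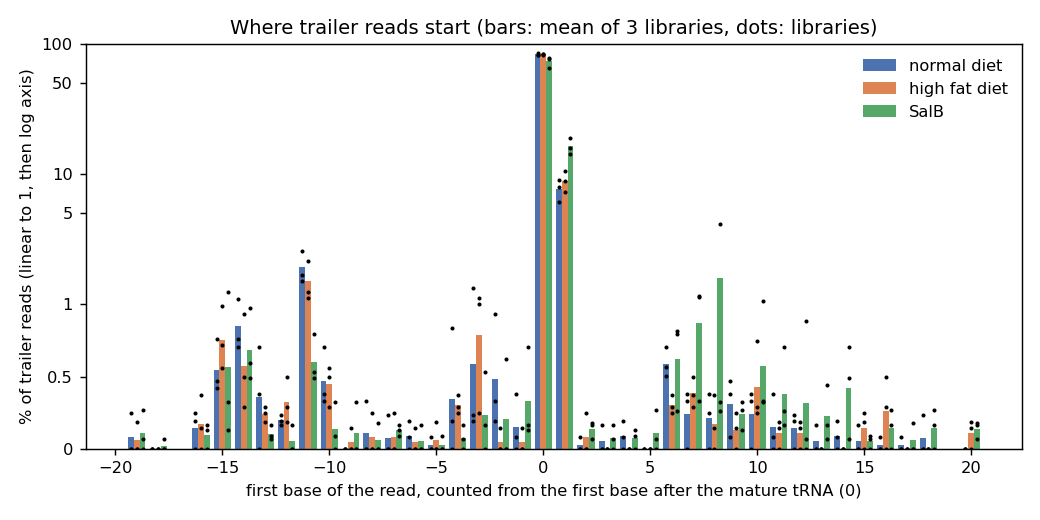
Percent of trailer reads (vertical axis, linear to 1 and then logarithmic) by the position of the first base of the read (horizontal axis, bases, 0 is the first base after the mature part). Bars are means of 3 libraries per group and dots are libraries: position 0 holds most reads in every library, position 1 comes next, and 1 SalB library has more reads from position 6 onward.

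By library, reads from the first base made up 82.6%, 85.5% and 82.3% of trailer reads on the normal diet, 81.7%, 83.9% and 84.4% on the high fat diet and 76.8%, 65.6% and 77.7% with SalB. The group means were 83.5% ± 1.78, 83.3% ± 1.44 and 73.4% ± 6.72 (SD, n = 3). The 3 SalB libraries lay below the other 6. An exact permutation test, two-sided, gave p = 0.1 for SalB against either group, the smallest p that 3 against 3 can give (0.2 after Benjamini-Hochberg adjustment over 6 comparisons). Cys-GCA-3-4 and His-GTG-1-1, with starts at the second base, together with a run shared by 4 genes in SalB replicate 2, took a larger part of the SalB trailer reads (values below), and their part in this difference was not tested. High fat diet differed from normal diet by -0.16 percentage points (exact permutation p = 1.0). Reads from the first or second base together made up 91.7%, 91.6% and 90.2% on the normal diet. They made up 92.1%, 92.8% and 91.6% on the high fat diet and 95.6%, 81.4% and 92.0% with SalB. By that measure the SalB libraries lay on both sides of the other groups.

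Many trailer reads ended in U, written T in these files. Reads ending in 3 or more T were 61.3% of His-GTG-2-7, 78.8% of Ala-TGC-3-1, 76.7% of Thr-CGT-1-1, 74.2% of Ser-AGA-2-6 and 56.1% of Ala-CGC-2-1. They were 16.3% of Cys-GCA-3-4, 4.25% of Thr-AGT-1-2, 2.12% of Ala-AGC-2-1, 0.877% of Ser-GCT-4-1 and 0.714% of His-GTG-1-1. In His-GTG-2-7 most reads stopped at base 20, after a run of 3 T and short of the run of 4 that begins at base 26. In Ser-GCT-4-1 most reads stopped near base 19, short of the T run that begins at base 28. Reads ending in 3 or more T made up 38.6%, 43.7% and 48.6% of trailer reads on the normal diet, 33.2%, 34.4% and 37.1% on the high fat diet, and 38.0%, 36.4% and 38.8% with SalB. The normal diet libraries lay above the high fat diet libraries (exact permutation p = 0.1, adjusted 0.2), and the SalB libraries overlapped normal diet. Ala-TGC-3-1 took a mean of 7.61% of trailer reads on the normal diet and 4.44% on the high fat diet. Ala-CGC-2-1 went the other way, at 2.13% and 2.82%. The part of such shifts, and of mismatches at the last base (values below), in this difference was not tested.

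His-GTG-2-7, the most abundant trailer, ended at base 20 in 1729 reads, after the third T of a run of 3. Base 20 took 60.7%, 69.8% and 67.5% of its reads on the normal diet, 59.8%, 63.6% and 67.5% on the high fat diet and 63.6%, 62.1% and 58.1% with SalB, so the groups overlapped. Base 21 took 20.1%, 16.3% and 15.7%, then 20.9%, 19.9% and 16.7%, then 21%, 22.3% and 27.9% in the same order of groups. The lowest SalB library was only just above the highest high fat diet library. These 536 reads ended where the reference letter is G, and 369 of them (68.8%) carried another letter there: T in 213, A in 147 and C in 9. At base 20 only 11.6% of the reads mismatched. The share mismatched at base 21 was 69.8%, 57.1% and 69.0% on the normal diet, 65.4%, 43.3% and 56.4% on the high fat diet, and 80.6%, 69.0% and 71.7% with SalB. Counting only reads whose last letter matched the reference, the groups overlapped at base 21. Its share was then 5.71%, 9.48% and 11.6% with SalB, against 6.05% to 8.33% on the normal diet and 9.19% to 14.9% on the high fat diet. All trailers together, 17.0% ± 2.33 of reads mismatched at the last base on the normal diet, 21.4% ± 2.17 on the high fat diet and 23.0% ± 3.82 with SalB (SD, n = 3). Added letters and sequencing errors at the last base cannot be told apart in these files.

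Of 41 end positions with 15 or more reads in the 10 trailers, 7 in 4 trailers separated the SalB libraries from the other 6. Beside base 21 of His-GTG-2-7 they lay in Ala-TGC-3-1, Ala-CGC-2-1 and Ser-GCT-4-1. Counting only reads with a matched last letter, the separation was lost in His-GTG-2-7 and kept in the other trailers. All 7 positions were chosen after their values were seen, and no test was made. Positions of 1 trailer divide the same reads, so they are not independent. Base 21 of Ala-CGC-2-1 held only 0 to 2 reads in each of the other 6 libraries. Separation of ends was not limited to SalB. The normal diet libraries stood apart from all high fat diet and SalB libraries at base 18 of Ser-GCT-4-1 and bases 18 and 21 of Ala-CGC-2-1. They also did at base 25 of Ala-AGC-2-1 and base 26 of Cys-GCA-3-4. In Ala-TGC-3-1, reads that ended at base 21, after all 4 T of its run, made up 10.3%, 5.88% and 7.78% on the normal diet and 6.9%, 4.0% and 12.5% on the high fat diet. With SalB they made up 40.4%, 35.2% and 34.4%, and no library of another group came near. Base 20, after the third T, took most of the other reads in every library. Counting only reads whose last letter matched the reference, base 21 took 37.2%, 36.7% and 36.5% with SalB and 4.55% to 11.8% in the other 6 libraries.

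Reads of Ala-CGC-2-1, another alanine tRNA gene, also ended later with SalB. Those that ended at base 18, after the second T of its run of 5, made up 58.3%, 66.7% and 70.8% on the normal diet, 44.4%, 50% and 35.7% on the high fat diet, and 20.4%, 19.6% and 18.2% with SalB. The SalB libraries were lowest and the normal diet libraries highest, with no overlap. These shares rest on 8 to 27 reads in the high fat diet libraries and 9 to 24 in the normal diet libraries, while SalB gave 54, 51 and 22 reads. Its reads also started at the second base more often with SalB, at 27% ± 8.11 against 4.93% ± 8.54 on the high fat diet and 5.55% ± 4.81 on the normal diet (SD, n = 3).

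In Ser-GCT-4-1 the end at base 18 took 27.4%, 40.4% and 24.0% of reads on the normal diet and 23.2%, 22.3% and 17.9% on the high fat diet. It took 4.9%, 9.94% and 7.89% with SalB, below the other 6 libraries. Base 19 took 63.6%, 51.4% and 40.4% with SalB, against 34.8%, 38.8% and 38.5% on the high fat diet and 30.1%, 28.7% and 38.3% on the normal diet. These ends lie outside any T run. The mean last base of Ser-GCT-4-1 was 19.5 ± 0.2 with SalB and 19.4 ± 0.2 on the high fat diet (SD, n = 3), so the groups overlapped by that measure. Over the 10 trailers, the mean last base of SalB and high fat diet libraries did not overlap in 3. It was later with SalB in 2 (Ala-TGC-3-1 and Ala-CGC-2-1) and earlier in 1 (Thr-CGT-1-1). SalB and normal diet libraries did not overlap in 3 of the 10, and high fat diet and normal diet libraries in 1, Ala-CGC-2-1.

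**Figure D2:**
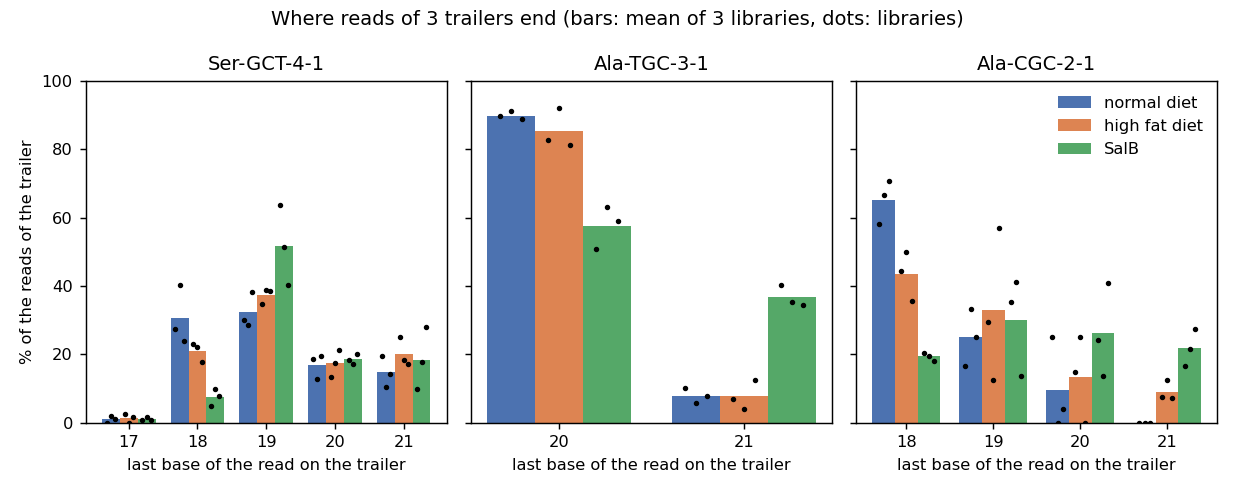
Percent of the reads of a trailer (vertical axis) by the last base of the read (horizontal axis, base number on the trailer, positions with 15 or more reads) in Ser-GCT-4-1, Ala-TGC-3-1 and Ala-CGC-2-1. Bars are means of 3 libraries per group and dots are libraries: SalB libraries lie above the others at base 21 of Ala-TGC-3-1 and below them at base 18 of the other trailers.

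Levels were compared first between SalB and high fat diet, which asks what SalB changed on the same diet. limma-voom with Benjamini-Hochberg adjustment over all 165 tRNA sums tested called 1 of the 10 trailers, His-GTG-1-1, against 26.7% of all sums (14.5% higher, 12.1% lower). The 10 trailers held 5 with an unadjusted p under 0.05, of which 4 were higher with SalB and 1 lower, against 41.8% of all sums. SalB and high fat diet libraries did not overlap in 4 of the 10, against 46.1% of all sums. With total tRNA reads as the scale, the calls among all sums changed from 24 higher and 20 lower to 14 higher and 40 lower.

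His-GTG-1-1 stood at 246, 125 and 83.3 normalised CPM on the high fat diet and at 736, 294 and 568 with SalB. It had 59.5, 175 and 180 on the normal diet. The 3 SalB libraries were above the other 6. It rose by a log2 fold change of 1.66 (SE 0.55, limma-voom adjusted p = 0.0481). The call was lost without normal diet replicate 2 (adjusted p = 0.0538) or 3 (0.0714) and without high fat diet replicate 2 (0.121) or 3 (0.151), and it missed the filter without high fat diet replicate 1, SalB replicate 1 or SalB replicate 3. Scaled by total tRNA reads, the log2 fold change was 1.12 (adjusted p = 0.217). As a share of trailer reads, which needs no scaling between libraries, it was 2.29%, 0.99% and 0.745% on the high fat diet and 2.57%, 2.3% and 3.91% with SalB.

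Cys-GCA-3-4 had the largest difference among the 10 but was not called. It stood at 123, 436 and 312 normalised CPM on the high fat diet and at 2700, 531 and 639 with SalB. SalB replicate 1 was far above the other libraries, and all 3 SalB libraries were above the high fat diet. The log2 fold change was 1.98 (SE 0.69, limma-voom adjusted p = 0.0528), and 1.27 without SalB replicate 1 (0.0727). Its share of trailer reads was 1.15%, 3.47% and 2.79% on the high fat diet and 9.43%, 4.15% and 4.4% with SalB.

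Ala-CGC-2-1 stood at 415, 249 and 291 normalised CPM on the high fat diet and at 1020, 576 and 521 with SalB. The groups did not overlap, and the log2 fold change of 1.04 (SE 0.35) had a limma-voom adjusted p of 0.05, just on the other side of the threshold. Its share of trailer reads overlapped, at 3.87%, 1.98% and 2.61% on the high fat diet and 3.56%, 4.51% and 3.58% with SalB. Ala-TGC-3-1 had 446, 778 and 333 normalised CPM on the high fat diet and 1080, 610 and 1440 with SalB. Its groups overlapped (log2 fold change 1.01, SE 0.4, limma-voom adjusted p = 0.0814). It passed the threshold when SalB replicate 2 was left out, with 1.39 (0.0106).

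The other 6 trailers were not called. His-GTG-2-7 had 3830, 4700 and 4870 normalised CPM on the high fat diet and 11600, 3600 and 5090 with SalB. SalB replicate 1 was high and the other SalB libraries were within or near the range of the high fat diet (log2 fold change 0.38, SE 0.39, limma-voom adjusted p = 0.484). Ser-GCT-4-1 had 2520, 3210 and 2440 on the high fat diet and 5400, 2040 and 2700 with SalB, again with SalB replicate 1 alone high (0.22, SE 0.35, limma-voom adjusted p = 0.67). As a share of trailer reads Ser-GCT-4-1 was lower with SalB without overlap, at 18.9%, 16% and 18.6% against 23.5%, 25.5% and 21.8% on the high fat diet. Ala-AGC-2-1, Thr-AGT-1-2 and Thr-CGT-1-1 had log2 fold changes of 0.37, 0.17 and 0.67 (SE 0.34, 0.34 and 0.41) and limma-voom adjusted p-values of 0.457, 0.716 and 0.239. Of these 3, the groups did not overlap in Thr-CGT-1-1, at 169, 218 and 229 normalised CPM on the high fat diet and 491, 260 and 284 with SalB. Ser-AGA-2-6 was the 1 trailer with a lower estimate with SalB (-1.13, SE 0.5, limma-voom adjusted p = 0.114), and it was called when scaled by total tRNA reads (-1.71, 0.0349).

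**Figure D3:**
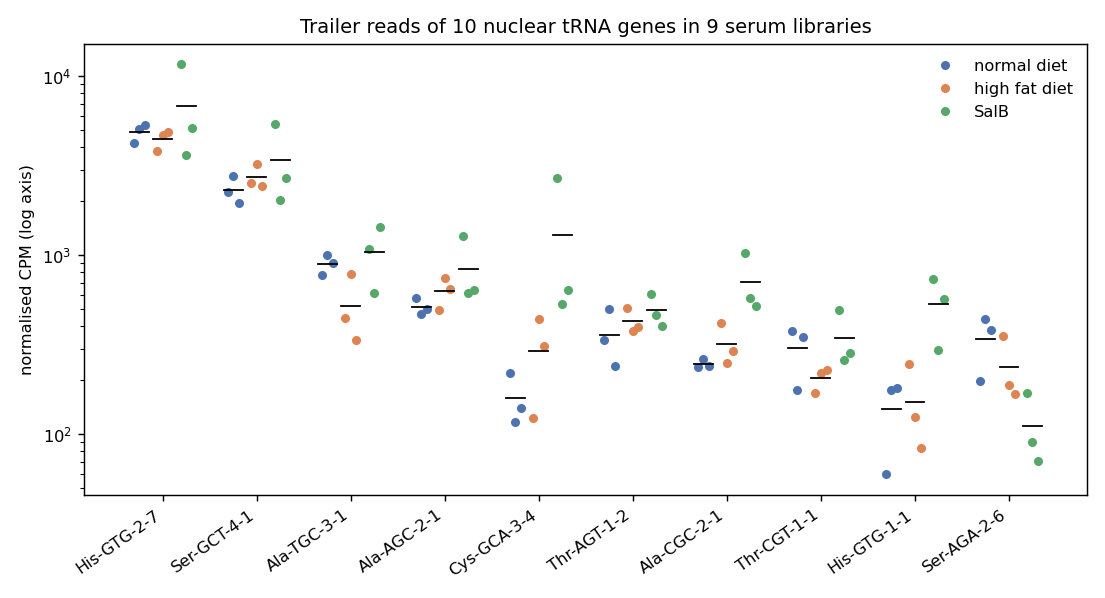
Normalised CPM (vertical axis, logarithmic) of the 10 trailers (horizontal axis) in the 9 libraries, with 1 point per library and a line at the mean of each group of 3. SalB points lie highest in Cys-GCA-3-4, Ala-CGC-2-1 and His-GTG-1-1 and below the normal diet in Ser-AGA-2-6, and SalB replicate 1 is the upper green point in most trailers.

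Between SalB and normal diet, which share the SalB libraries with the comparison above, limma-voom called 4 of the 10 trailers, against 30.9% of all sums tested (15.8% higher, 15.2% lower). The libraries did not overlap in 5 of the 10, against 44.8% of all sums. By total tRNA reads, the calls among all sums went from 26 higher and 25 lower to 12 higher and 40 lower. Strain and treatment cannot be told apart here.

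Cys-GCA-3-4 stood at 218, 117 and 140 normalised CPM on the normal diet, below each SalB library. It rose by 2.6 on the log2 scale (SE 0.71, limma-voom adjusted p = 0.0195). The call was lost without normal diet replicate 2 (0.0551) or 3 (0.0857), and without SalB replicate 1 the log2 fold change was 1.9 (0.0178). By total tRNA reads it was 2.11 (0.0458). Ala-CGC-2-1 had 238, 263 and 240 normalised CPM on the normal diet, a narrow range that lay below every SalB library. It rose by 1.43 (SE 0.35, limma-voom adjusted p = 0.0126), and the call was lost without normal diet replicate 3 (0.0549), by total tRNA reads (0.93, 0.123) and with no filter.

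His-GTG-1-1 rose by 1.8 on the log2 scale against normal diet (SE 0.54, limma-voom adjusted p = 0.0276). The call was lost without normal diet replicate 1 (0.0891) or 3 (0.0549), by total tRNA reads (1.28, 0.141) and with no filter. His-GTG-1-1 passed the filter through SalB replicates 1 and 3 and high fat diet replicate 1. No normal diet library reached the level of the filter. In this comparison it was tested in 15 of 21 alternatives and missed the filter in the others. Ser-AGA-2-6 stood at 198, 438 and 379 normalised CPM on the normal diet and at 170, 90.3 and 71.0 with SalB, so the SalB libraries were lower without overlap. It fell by 1.56 on the log2 scale (SE 0.47, limma-voom adjusted p = 0.0277). That call rests on 20 reads in the 3 SalB libraries and was lost without normal diet replicate 2 (0.0824) or 3 (0.103) or SalB replicate 2 (0.0687) or 3 (0.0838). It was also lost with no filter. As a share of trailer reads Ser-AGA-2-6 was 1.89%, 3.5% and 3.17% on the normal diet, 3.3%, 1.49% and 1.49% on the high fat diet and 0.593%, 0.707% and 0.489% with SalB.

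Between high fat diet and normal diet, limma-voom called 0 of the 10 trailers and 0 of 165 sums (0.0% of those tested). None of the 10 had an unadjusted p under 0.05, against 7.88% of all sums, and limma on log2 values called 0. In normalised CPM the libraries overlapped in each of the 10, against 21.8% of all sums without overlap. The widest estimate was that of Ala-TGC-3-1, at 774, 994 and 899 normalised CPM on the normal diet and 446, 778 and 333 on the high fat diet. The high fat diet libraries were lower except for 1 at the level of the lowest normal diet library (log2 fold change -0.88, SE 0.41, limma-voom adjusted p = 0.616). As a share of trailer reads it did not overlap, at 7.37%, 7.94% and 7.52% on the normal diet and 4.15%, 6.19% and 2.98% on the high fat diet. Thr-CGT-1-1 (-0.56), Ser-AGA-2-6 (-0.44) and His-GTG-2-7 (-0.13) had negative estimates, and the other 6 positive ones from 0.14 to 0.61.

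**Figure D4:**
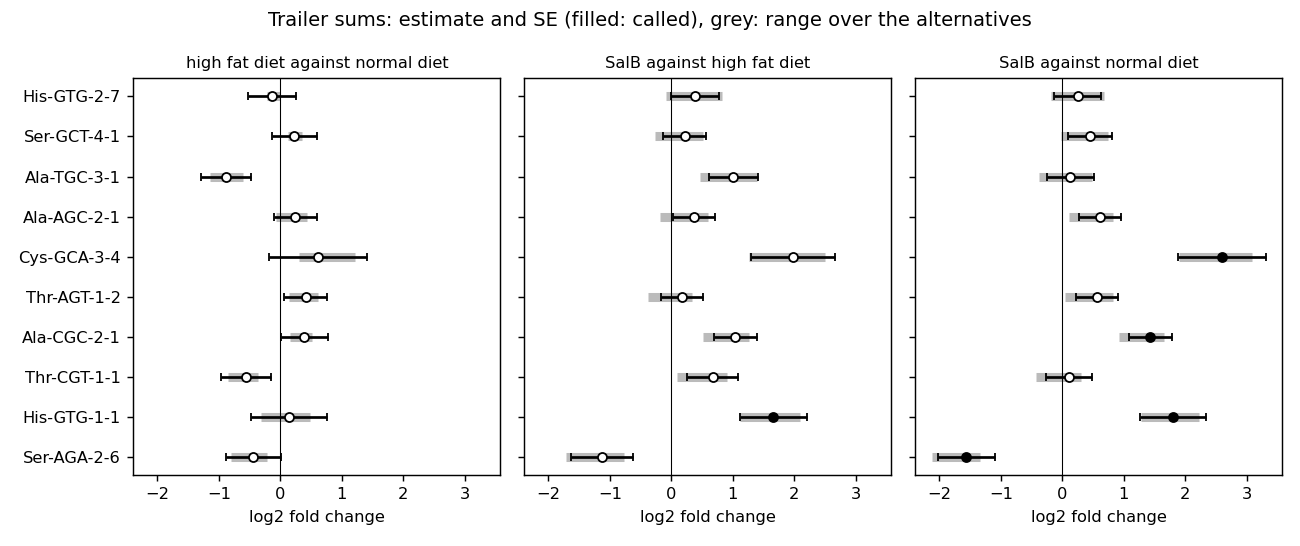
Log2 fold change (horizontal axis) of the 10 trailers (vertical axis) in the 3 comparisons, with the estimate and its SE, filled where called at an adjusted p under 0.05. Grey bars run over the alternative settings: those of Cys-GCA-3-4, Ala-CGC-2-1, His-GTG-1-1 and Ser-AGA-2-6 stay on 1 side of 0 in both SalB comparisons, while those of His-GTG-2-7 and Ser-GCT-4-1 reach both sides.

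Some trailers below the filter differed in reads, and they are given as counts. Arg-CCT-1-1, an arginine tRNA gene, gave 0, 1 and 2 reads on the normal diet, 1, 1 and 0 on the high fat diet, and 13, 19 and 6 with SalB. The SalB libraries were above the other 6, and a fit with no filter called it against high fat diet (log2 fold change 3.01, SE 0.64, limma-voom adjusted p = 0.00757) and against normal diet (3.0, 0.0057). The initiator methionine trailer iMet-CAT-1-1 gave 1, 2 and 6 reads, then 3, 1 and 1, then 6, 18 and 6 in the same order of groups. In normalised CPM its SalB libraries, at 113, 203 and 142, lay above the other 6, at most 59.9. Ser-TGA-1-1, the gene type of the well known serine trailer fragment tRF-1001, gave 5, 5 and 7 reads, then 2, 0 and 2, then 11, 7 and 5. Its high fat diet libraries were lowest. Cys-GCA-3-3, another copy of the cysteine tRNA of Cys-GCA-3-4, gave 4, 2 and 21 reads on the normal diet, 7, 3 and 4 on the high fat diet and 5, 1 and 2 with SalB, and its groups overlapped.

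A run of letters shared by 4 trailers was most frequent in 1 library. The letters gagatggc stood in 95 trailer reads from Glu-CTC-2-1, Ile-AAT-2-1, Trp-CCA-6-1 and Val-CAC-4-1, and 63 of these were in SalB replicate 2, where they made up 5.57% of trailer reads. The share was 0.234% to 1.3% in the other 8 libraries. The most abundant such read is shown because it cannot be assigned to 1 gene, and capitals are not used in it.
Ile-AAT-2-1, Trp-CCA-6-1 and Val-CAC-4-1, shared read: gggctggtgagatggc
Those reads started 6 to 18 bases past the mature end. The same letters stood in 89.1% of the reads of the left-out Leu-CAG-3-1 precursor, which filled 42% of the tRNA reads of that library. Whether reads with these letters came from tRNA precursors or from other transcripts that hold the same letters cannot be told apart here, and the first-base share and the Leu-CAG-3-1 share of SalB replicate 2 both include them. Val-TAC-1-1, without those letters, also gave 20 of its 23 reads in SalB replicate 2.

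Other fragments of the same genes were set beside the trailers. Leaders, the 5′ ends of precursors, gave 395 reads in 108 sums against 7056 trailer reads, and 201 of them were in SalB replicate 2. The 10 genes above gave between 0 and 2 leader reads each. Of 15 mature fragment sums of the same families that were tested, limma-voom called 0 higher and 2 lower with SalB against high fat diet: the 3′ fragments of Ala-AGC (-0.98, SE 0.25, adjusted p = 0.0197) and Thr-AGT (-1.44, SE 0.4, adjusted p = 0.0273). Among all sums 14.5% were called higher and 12.1% lower in that comparison. The 15 were sums of 1 family each, with none of Ser-AGA or Thr-CGT, and sums shared by families were not included. The trailers Ala-AGC-2-1 and Thr-AGT-1-2 were not called. Against normal diet 0 of the 15 mature sums were called higher and 3 lower. Among all sums 15.8% were called higher and 15.2% lower there. Between the diets 0 of the 15 were called (0 of the 165 sums had an adjusted p under 0.05).
The left-out trailers Arg-ACG-1-3 (1.82, limma-voom adjusted p = 0.0024) and Ile-TAT-2-1 (1.79, 0.00772) rose with SalB against high fat diet, while Tyr-GTA-2-1 (-0.53) and Leu-CAG-3-1 (7.26, SE 2.88) were not called.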

How the data were processed

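Total RNA of serum was extracted with TRIzol, ligated to adapters, amplified, size selected on a gel and sequenced by Illumina, per the labels' protocols. The submitters' processing notes list mm10, cutadapt, Bowtie, FastQC and edgeR without roles or versions. The deposited files are alignment lists of collapsed reads, whose count stands inside the read name, with at most 1 mismatch.

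Each read was counted once and summed by origin and tRNA gene (precursors) or family (mature). The mature end on a precursor was found from the last 12 letters of the mature tRNA without CCA, or else from its length. limma-voom (limma 3.58.1, R 4.3.3) was fitted over all 9 libraries, two-sided, at an adjusted p of 0.05, and edgeR was not run. Trimmed means were computed from their definition. The filter asked for 10 reads, rescaled to the median depth (44415), in 3 libraries and 15 in all. On simulated data the procedure recovered 95.2% of 4-fold and 55% of 2-fold changes, and 8.82% of its calls were false. The simulation used 1 fixed spread for all sums and held no library like SalB replicate 2. Named trailers were the 10 with the most reads and any called. Members and lists were chosen with earlier results of these data known. No 2 libraries of a group agreed within counting error. Alternatives were 2 other scalings by totals, RLE size factors, no or a stricter filter, limma on log2 values (pseudocount 1), a replicate block, restricted reads, each library left out, and trimmed means without Leu-CAG-3-1, added after the data were seen.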

Additional observations from a re-analysis of the deposited data

How the results depend on the processing

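Trailers called for SalB against high fat diet numbered 1, and 3 with RLE size factors, limma on log2 values or trimmed means without Leu-CAG-3-1 (Cys-GCA-3-4, Ala-CGC-2-1 and His-GTG-1-1 in each). By total reads 1 trailer was called, Ser-AGA-2-6 in place of His-GTG-1-1. Among all 165 sums, 24 were called higher and 27 lower with RLE size factors. With limma on log2 values 29 of all sums were called higher and 23 lower. Trailers called numbered 2 with no filter (Arg-CCT-1-1 and Trp-CCA-6-1), where all 169 trailer sums were tested. They also numbered 2 with only reads starting within 2 bases of the mature end, and 0 with a read counted at every gene. With totals without Leu-CAG-3-1, 0 trailers were called, while 15 of all sums were called higher and 35 lower. Leaving out 1 library gave 0 to 4, with 4 without SalB replicate 2. For SalB against normal diet the 4 calls became 2 by total reads, with a stricter filter, only the libraries compared or only reads without a mismatch. With 1 library left out they numbered 0 to 4. With no filter 2 trailers were called, Cys-GCA-3-4 and Arg-CCT-1-1, and the calls of Ala-CGC-2-1, His-GTG-1-1 and Ser-AGA-2-6 were lost. High fat diet against normal diet gave 0 under each alternative. With the replicate number as a block, 2 were called for SalB against high fat diet, Ala-CGC-2-1 and Cys-GCA-3-4, and His-GTG-1-1 was not (adjusted p = 0.0628). Against normal diet the block lost Ser-AGA-2-6 (0.0659). Of 9 same-numbered pairs, 1 correlated above 0.1 (-0.36 to 0.21), so no pairing by number was seen. The labels do not say whether the numbers pair the libraries, and low correlations cannot decide it.

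Uncalled estimates turned negative for SalB against high fat diet by total reads in His-GTG-2-7 (-0.09), Ser-GCT-4-1 (-0.27), Ala-AGC-2-1 (-0.18) and Thr-AGT-1-2 (-0.38), and by totals without Leu-CAG-3-1 in Ser-GCT-4-1 (-0.01) and Thr-AGT-1-2 (-0.06). Without SalB replicate 1 they did so in His-GTG-2-7 (-0.01, and 0.82 without SalB replicate 2) and Ser-GCT-4-1 (-0.15 and 0.51). For SalB against normal diet they did by total reads in His-GTG-2-7 (-0.19), Ser-GCT-4-1 (-0.02), Ala-TGC-3-1 (-0.38) and Thr-CGT-1-1 (-0.43), by totals without Leu-CAG-3-1 in Ala-TGC-3-1 (-0.08) and Thr-CGT-1-1 (-0.07), and with no filter in the same 2 (-0.12 and -0.07). Thr-CGT-1-1 also did within 2 bases (-0.16) and without normal diet replicate 2 (-0.1) or SalB replicate 1 (-0.11), His-GTG-2-7 without SalB replicate 1 (-0.14) and Ala-TGC-3-1 without SalB replicate 3 (-0.08). Without SalB replicate 2 these were 0.31, 0.68 and 0.49. Between the diets, Ala-AGC-2-1 turned to -0.07 without mismatched reads and His-GTG-1-1 to -0.31 without normal diet replicate 1, against 0.49 without high fat diet replicate 3. The causes were not tested.

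Reads from the first base made up 86.9% (normal diet), 85.6% (high fat diet) and 77.8% (SalB) without mismatched reads, and 63.3%, 65.6% and 54.7% (SalB) with each distinct read counted once. Reads ending in T made up 51.0%, 43.9% and 48.9%, and 28.4%, 23.2% and 26.2%. The normal diet trailer share was 1.19% within 2 bases. Counts under 20 reads in 4 or more libraries limit His-GTG-1-1, Cys-GCA-3-4, Ala-CGC-2-1, Thr-AGT-1-2, Thr-CGT-1-1 and Ser-AGA-2-6.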
